A study of Rattus norvegicus with 18 samples.

Results

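The comparison is between bone marrow mesenchymal stem cells of rats after 4 months on a high-fat diet (HFD) and after 2 months on it. Its members are the 6 arrays whose titles give these groups, 3 for HFD at 4 months and 3 for HFD at 2 months, of 18 arrays in the series. All probe sets of these arrays were taken, on the log2 scale of the deposited intensities. The rats were of the Sprague-Dawley strain, were 6 weeks old when feeding began, and carried no genetic change. HFD was 60% basal diet, 20% lard, 10% sucrose and 10% egg yolk powder. The normal diet (ND) was basal diet alone. The same interval on ND, 3 arrays at 4 months and 3 at 2 months, is given beside the HFD values, and the arrays at 1 month complete the series. The rats at 4 months of feeding were also older than those at 2 months, so feeding time and age cannot be told apart within a diet. The cells grew from whole marrow plated directly and passaged, without a sort, and the labels give passage 3 for the samples and passage 1 in the series text. The series text gives 3 per group and nothing says that each array is a separate animal, so p-values measure only the spread between arrays, which may be technical.

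Bone marrow mesenchymal stem cells are adherent stromal cells that can become bone, fat and cartilage cells and that support blood formation, mainly through the chemokine CXCL12 and other niche factors. They secrete matrix, growth factors, WNT antagonists and parts of the complement system, the cascade of plasma proteases that marks particles for removal. Plated whole marrow also carries macrophages along, which adhere to plastic and can persist for several passages.

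Thy1 (CD90) read 11.71, 11.71 and 11.81 log2 units after 4 months and 12.12, 11.94 and 11.73 after 2 months, and Eng (CD105) read 6.18 to 6.51 and 6.02 to 6.17. Of 14 tested stromal surface markers 0 passed, 5 had a positive and 9 a negative difference, and the range was -0.96 to 1.66 with a median of -0.18. Nt5e (CD73) stood at 1.66 ± 0.52 and Pdgfrb at -0.96 ± 0.30 (SE, n = 3 per group, limma adjusted p = 0.135 each). Macrophage markers were measured too, and 0 of 27 passed. Cd68, a lysosomal protein of macrophages, read 10.29, 9.84 and 10.20 after 4 months against 5.21, 7.90 and 9.0 after 2 months. The 6 arrays had medians of 26.3 to 27.1 on the linear scale. Their beta-actin control probe sets, a sign of RNA quality, read 0.55 to 0.66 log2 units higher at the 3' than at the 5' end. Over all probe sets the 4-month arrays correlated with each other at 0.990 to 0.992 and the 2-month arrays at 0.978 to 0.989. Across the groups, 2-month replicate 1 correlated with the 4-month arrays at 0.963 to 0.965, replicate 2 at 0.974 to 0.977 and replicate 3 at 0.986 to 0.987.

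After 4 months, 153 of 21729 tested probe sets (0.704%) differed from 2 months in limma at an adjusted p under 0.05, 63 higher (0.29%) and 90 lower (0.414%). Among 11446 named genes, each read on its brightest tested probe set, 88 passed (0.769%), of which 36 rose (0.315%) and 52 fell (0.454%). The median size of a called difference was 1.30 log2 units; 112 of the 153 probe sets were past 2-fold and 30 past 4-fold. In none of the 88 genes did the 4-month and 2-month arrays overlap. Absence of overlap alone was common, since 13.7% of all named genes lay wholly higher and 14.7% wholly lower after 4 months. The median difference over the named genes was -0.01. For A2m, C3, Fads1, Hbb, Ibsp, Insig1, Jag1, Pdlim1, Plat, Scd2, Sphk1, Tgfb3, Tnfrsf1a and Tyro3, 1 array outside the comparison, ND 1-month replicate 1, has no value and the fit used the other 17. Where a called gene had several tested probe sets, as 27 of the 88 did, none of the others had the opposite sign.

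The number of calls depended on single arrays. Without 2-month replicate 1 or without 4-month replicate 2 limma called 0 probe sets, where the lowest adjusted p was 0.0933 and 0.103. It called 1 without 2-month replicate 2, 1 without 4-month replicate 1 and 28 without 4-month replicate 3, and 1073 without 2-month replicate 3, among which were all 153. Of the 3 arrays at 2 months, replicate 3 lay nearest to the 4-month mean in 75 of the 88 genes, and replicate 1 lay farthest in 52. Over all probe sets replicate 3 also correlated best with the 4-month arrays (0.986 to 0.987) and replicate 1 least (0.963 to 0.965). This order is thus not particular to the called genes. Arrays outside the 2 groups enter through the shared estimate of spread, and the count was 96 without HFD 1-month replicate 1, 241 without its replicate 2, 44 without its replicate 3, 69 and 89 without ND 2-month replicates 2 and 3, and 62 without ND 4-month replicate 1.

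**Figure D1:**
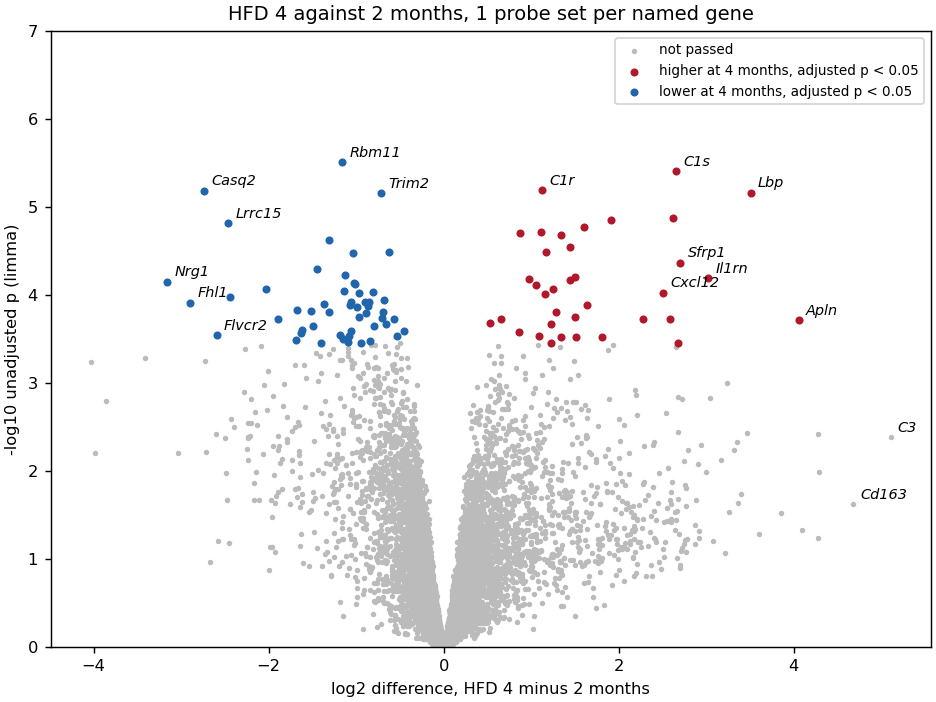
Each point is 1 named gene on its brightest tested probe set, with the log2 difference of HFD 4 minus 2 months on the x axis and -log10 of the unadjusted limma p on the y axis. The 36 genes that rose are red and the 52 that fell are blue, and Apln, at 4.06, lies farthest to the right among those that passed.

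The 2-month group stood at the edge of the series in nearly all of these genes. In 36 of the 36 genes that rose, the HFD 2-month mean was the lowest of the 6 group means, and in 50 of the 52 that fell it was the highest. Over all named genes that was so for 55.4% of those with a positive difference and 45.8% of those with a negative one, and the 2-month arrays enter the choice of these genes. The HFD 1-month mean lay on the 4-month side of the 2-month mean in 36 of the 36 and 51 of the 52 genes. Over all named genes that was so for 73% of those with a positive difference and 74.7% of those with a negative one. The 4-month mean was the opposite extreme in 12 of the 36 genes that rose (33.3%), near the 31.1% of all with a positive difference. It was so in 34 of the 52 that fell (65.4%), against 38.4% of all with a negative difference. The 4-month arrays enter the choice of these genes as well, which favours a 4-month mean at the extreme. Sfrp1, a rise, had means of 9.95 ± 0.39, 6.92 ± 0.85 and 9.63 ± 0.87 log2 units after 1, 2 and 4 months of HFD and of 10.51 ± 0.64, 10.82 ± 0.40 and 9.22 ± 0.36 on ND (SD, n = 3). Nrg1, a fall, read 6.37 ± 0.33, 8.42 ± 0.70 and 5.25 ± 0.45 after 1, 2 and 4 months of HFD and 6.29 ± 0.97, 5.81 ± 0.59 and 6.62 ± 1.21 on ND.

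**Figure D2:**
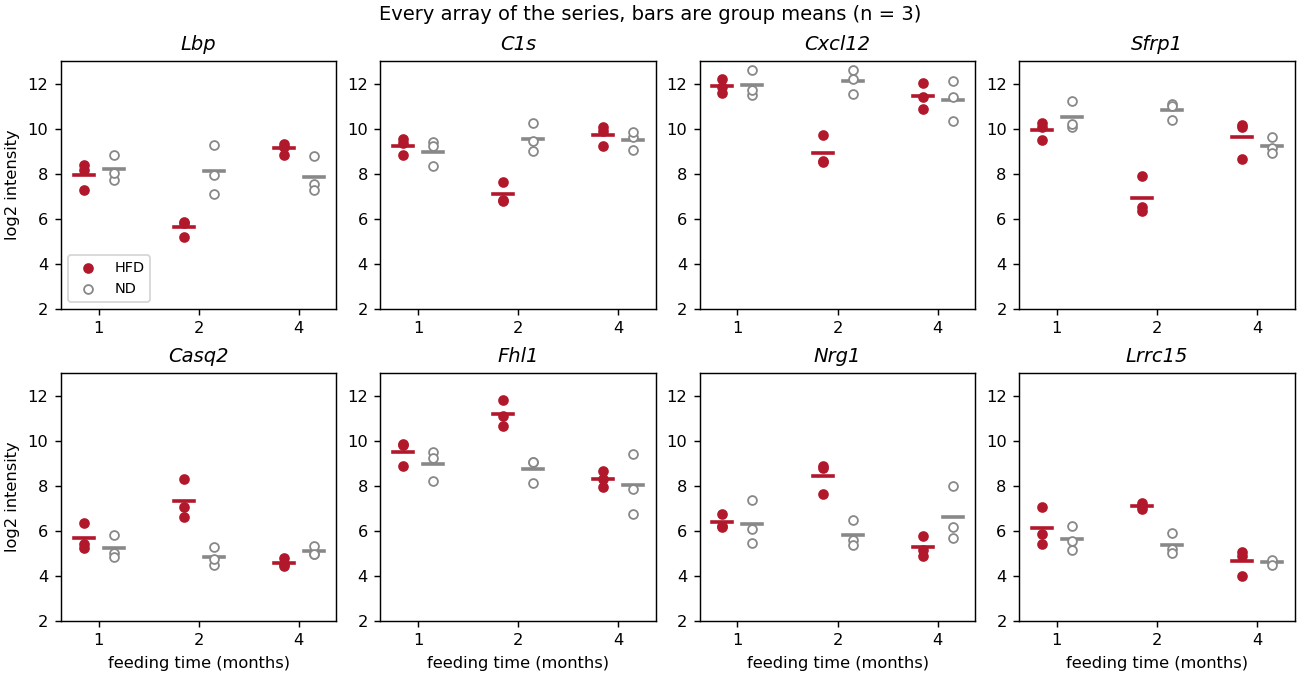
Log2 intensity of 8 genes on every array of the series by feeding time in months, HFD filled and ND open, with bars at the group means. The HFD 2-month means of Lbp, C1s, Cxcl12 and Sfrp1 lie lowest, between 5.62 and 8.94, and those of Casq2, Fhl1, Nrg1 and Lrrc15 highest, between 7.10 and 11.18. In Nrg1 and Lrrc15 a single array of another group reaches into the range of the HFD 2-month points.

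Over the same interval on ND, 0 of 21729 probe sets passed in limma, with a lowest adjusted p of 0.127, 0% called, and 1604 (7.38%) at an unadjusted p under 0.05, against 3682 (16.9%) on HFD. The difference between the diets was tested directly as the HFD change minus the ND change, and again 0 passed, with a lowest adjusted p of 0.0520 and 2060 (9.48%) at an unadjusted p under 0.05. With array weights 20 probe sets passed on ND and 640 in the difference. None of the changes is therefore shown to belong to HFD alone. The 88 genes all had a larger absolute difference on HFD than on ND, 78 of them had an unadjusted p under 0.05 for the difference between diets (9.77% of all named genes did), and 38 had the opposite sign on ND. The 88 genes were chosen for their difference on HFD, and the test between diets uses the same HFD arrays, so these counts are a description that the choice largely fixes. The smallest p in that test belonged to Ccdc71l, whose difference was -0.81 ± 0.15 on HFD and 0.70 ± 0.15 on ND, and to Sfrp1, with 2.70 ± 0.47 on HFD and -1.61 ± 0.47 on ND (SE, n = 3 per group, limma adjusted p = 0.0520 for each). Ppip5k1, a kinase of inositol pyrophosphates, stood at -1.0 on HFD and 0.55 on ND. Rbm11, an RNA-binding splicing regulator, stood at -1.16 and 0.10, C1r at 1.13 and -0.15, and Lgals9 at 1.91 and -0.37.

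Complement proteases and acute-phase genes were among the strongest rises. C1s, the protease that carries the C1 complex's activity on to C4 and C2, read 10.06, 9.90 and 9.25 log2 units after 4 months against 6.79, 6.82 and 7.63 after 2 months. The lowest 4-month array lay well above the highest 2-month array, and the difference was 2.66 ± 0.37, or 6.31-fold (SE, n = 3 per group, limma adjusted p = 0.0188). C1r, the protease that activates C1s, read 10.14, 10.09 and 9.74 after 4 months and 8.78, 8.58 and 9.22 after 2 months. It rose by 1.13 ± 0.16 (limma adjusted p = 0.0188), with 2-month replicate 3 nearest the 4-month arrays, as for C1s. C1r and C1s are next to each other in the RefSeq gene table and were the only neighbouring protein-coding pair among the 87 called genes found there.

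Of 13 tested complement genes, 2 rose, 0 fell and 11 did not pass, and 11 had a positive difference with a list median of 1.99, where the median of all named genes was -0.01. Serping1, the inhibitor of C1r and C1s, stood at 1.93 ± 0.42 (SE, n = 3 per group, limma adjusted p = 0.050). C3, the central component, had the largest difference of the list but did not pass. It read 9.85, 10.16 and 8.73 after 4 months against 2.88, 5.92 and 4.63 after 2 months, a difference of 5.10 ± 1.48 (limma adjusted p = 0.118), with the 2-month arrays spread over about 3 log2 units. C1qa, a chain of the recognition part C1q and a macrophage product, stood at 3.26 ± 1.35 (limma adjusted p = 0.241). On ND the list median was -0.15.

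The promoter windows of C1r and of Lgals9, a later gene, are shown because each holds a C/EBP motif. Cebpd, which encodes a factor of that family, rose too, and whether it acts on these genes was not tested. They are RefSeq sequences of build GRCr8, from 250 bases before to 50 bases after the annotated start, 5′ to 3′ on the gene's strand. The C1r window is chr4:159098763-159099062 on the plus strand, and the capitals mark a C/EBP motif 83 bases before the start. The Lgals9 window is chr10:64428021-64428320 on the minus strand, and its capitals mark, in order, a C/EBP motif 149, an AP-1 motif 40 and an ISRE motif 16 bases before the start.
C1r: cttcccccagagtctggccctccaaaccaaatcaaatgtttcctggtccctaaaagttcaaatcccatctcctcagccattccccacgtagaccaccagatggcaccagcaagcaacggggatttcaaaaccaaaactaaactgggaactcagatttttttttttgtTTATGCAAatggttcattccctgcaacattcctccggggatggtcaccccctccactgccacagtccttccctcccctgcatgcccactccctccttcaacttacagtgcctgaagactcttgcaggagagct
Lgals9: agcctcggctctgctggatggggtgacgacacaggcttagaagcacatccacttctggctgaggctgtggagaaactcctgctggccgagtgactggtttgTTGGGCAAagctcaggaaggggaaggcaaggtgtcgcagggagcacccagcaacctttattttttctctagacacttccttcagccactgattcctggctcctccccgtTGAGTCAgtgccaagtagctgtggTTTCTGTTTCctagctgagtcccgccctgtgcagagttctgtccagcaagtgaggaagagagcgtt
Motifs were searched on both strands. The letters were TTGCNNAA for C/EBP, TGANTCA for AP-1 and TTCNNNGAA for STAT, and the interferon-stimulated response element (ISRE) was GAAA, any 2 bases and GAAA again. The C/EBP letters occurred in 2 of the 25 windows of the 24 risen genes that had one (8%), against 10.6% of all 33469 windows. ISRE occurred in 2 of the 25 (8%), those of Lgals9 and Casp1, against 3.92%, and STAT in 1 (4%) against 8.87%.

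Among acute-phase genes, proteins that liver and other cells secrete in inflammation, Lbp and Hp rose. Lbp, which hands bacterial lipopolysaccharide to CD14, read 9.21, 9.33 and 8.84 after 4 months and 5.83, 5.17 and 5.86 after 2 months. The 3 arrays of each group lay close together, about 3 log2 units apart from the other group, and the difference was 3.51 ± 0.51, or 11.4-fold (SE, n = 3 per group, limma adjusted p = 0.0188). Hp, haptoglobin, which binds free haemoglobin, rose by 2.27 ± 0.46 (limma adjusted p = 0.0415). Of 15 tested genes of the acute-phase and IL-6 list, 2 rose, 13 did not pass, 13 had a positive difference and the median was 0.97, against -0.07 on ND. A2m, the protease inhibitor alpha-2-macroglobulin, stood at 3.24 ± 0.78 (limma adjusted p = 0.0715). Socs3, a feedback inhibitor of IL-6 signalling, stood at 0.97 ± 0.29 and Stat3, its transcription factor, at 0.46 ± 0.14 (limma adjusted p = 0.118 each).

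Il1rn, Casp1, Jak2 and Tnfrsf1a also passed. Il1rn, the secreted antagonist of the interleukin-1 receptor, read 9.16, 8.58 and 9.13 after 4 months against 5.46, 5.46 and 6.88 after 2 months. All 4-month arrays lay above all 2-month arrays, and the difference was 3.02 ± 0.55, or 8.13-fold (SE, n = 3 per group, limma adjusted p = 0.0330). It was the 1 rise among 24 tested interleukin-1 and NF-kB genes, 17 of which had a positive difference, with a median of 0.56. Il1r2, the decoy receptor, stood at 2.02 ± 0.69 and Irak3, which dampens the receptor's signal, at 1.57 ± 0.42, and neither passed. Casp1, the protease that processes interleukin-1 beta, rose by 1.34 ± 0.22, Jak2, a kinase of cytokine receptors, by 1.17 ± 0.20 and Tnfrsf1a, the main receptor for TNF, by 0.53 ± 0.10.

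Most interferon-linked and antigen presentation genes had positive differences, and of their lists Psmb9 alone passed. Psmb9, an interferon-induced subunit of the immunoproteasome, read 6.82, 6.93 and 7.24 after 4 months and 4.97, 5.73 and 5.80 after 2 months. The groups lay about 1 log2 unit apart at their nearest arrays, and the rise was 1.5 ± 0.30 (SE, n = 3 per group, limma adjusted p = 0.0415). The 14 tested genes of the immunoproteasome and class I list all had a positive difference, with a median of 0.31. Of 22 tested interferon response genes 0 passed, 19 had a positive difference and the median was 0.48, and 10 had an unadjusted p under 0.05, all positive, against 8.48% of all named genes. Igtp, an interferon-induced GTPase, stood at 1.05 ± 0.26 (limma adjusted p = 0.0742) and Stat2, a subunit of the interferon-activated factor ISGF3, at 0.63 ± 0.16 (limma adjusted p = 0.0827). Of 7 tested genes of MHC class II presentation 0 passed and 6 had a positive difference, with a median of 0.80, and of 0.16 with the macrophage covariate. RT1-DMb and RT1-DMa, the chains of the DM peptide exchanger, stood at 1.76 ± 0.89 and 1.46 ± 0.44 (limma adjusted p = 0.332 and 0.125). Outside the lists, Lgals9, the secreted lectin galectin-9, read 5.37, 5.57 and 5.57 after 4 months against 3.21, 4.05 and 3.51 after 2 months. Its groups were wide apart, with a rise of 1.91 ± 0.30 (limma adjusted p = 0.0213). Mnda, an interferon-inducible nuclear protein of myeloid cells, rose by 2.62 ± 0.41 (limma adjusted p = 0.0213). The chemokine list had 0 of 17 genes that passed and a median of 1.06. Its Ccl4 stood at 2.99 ± 1.02 and its Ccl3 at 2.55 ± 1.11.

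Macrophage genes had large positive differences beside these. Of 27 tested macrophage and monocyte markers, 26 had a positive difference, 25 had no overlap between the groups (13.7% of all named genes lay apart in this direction), and 0 passed, with a median of 2.51 on HFD and 0.35 on ND. Cd163, a scavenger receptor, read 9.69, 9.81 and 8.06 after 4 months and 2.47, 3.36 and 7.70 after 2 months. Adgre1 (F4/80) read 8.94, 8.60 and 8.66 after 4 months and 4.26, 5.56 and 6.43 after 2 months. In both genes the groups did not overlap, and the 2-month arrays were spread over several log2 units, with replicate 1 lowest and replicate 3 highest. The standard errors were 1.85 and 1.03, and the limma adjusted p was 0.221 for Cd163 and 0.133 for Adgre1. Lyz2, the lysozyme of myeloid cells, overlapped, at 12.87, 12.32 and 12.97 after 4 months and 10.64, 12.35 and 12.41 after 2 months. The summed intensity of the list was 26236, 18919 and 25172 after 4 months and 2542, 8974 and 12112 after 2 months. In such bulk samples, fewer cells of a type and less RNA per cell cannot be told apart.

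The macrophage list mean was also entered as a covariate. Relative to its average over the 18 arrays it was 1.53, 1.15 and 1.34 log2 units after 4 months and -2.47, -1.02 and 0.02 after 2 months. With it, 5 probe sets passed, 4 higher and 1 lower, and 1 of them was among the 153. That probe set belongs to Pla1a, a phosphatidylserine phospholipase, which rose by 1.06 ± 0.19 in the comparison (limma adjusted p = 0.0338) and stood at 1.39 ± 0.15 with the covariate (limma adjusted p = 0.00696). All 88 genes kept their sign and an unadjusted p under 0.05, at 0.61 to 1.31 times their difference, with a median of 0.86. These genes were chosen for their difference on the same arrays, which favours that outcome. The list mean was also higher on every 4-month than on every 2-month array. The fit therefore cannot decide how much of a difference goes with the macrophage level. C1s stood at 2.15 ± 0.35 with the covariate, Lbp at 2.90 ± 0.52, Il1rn at 2.76 ± 0.63, Psmb9 at 1.29 ± 0.34 and Lgals9 at 1.84 ± 0.35. List medians differed more between the fits, and apart from this covariate the part of the macrophage level in the results was not tested. With the covariate the macrophage median was -0.10, which the fit largely fixes, since the covariate is the mean of 24 of these genes. The complement median was then 0.45, that of acute-phase genes 0.31, of interleukin-1 genes 0.07 and of chemokines 0.06. It was 0.22 for interferon genes and 0.30 for class I genes.

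**Figure D3:**
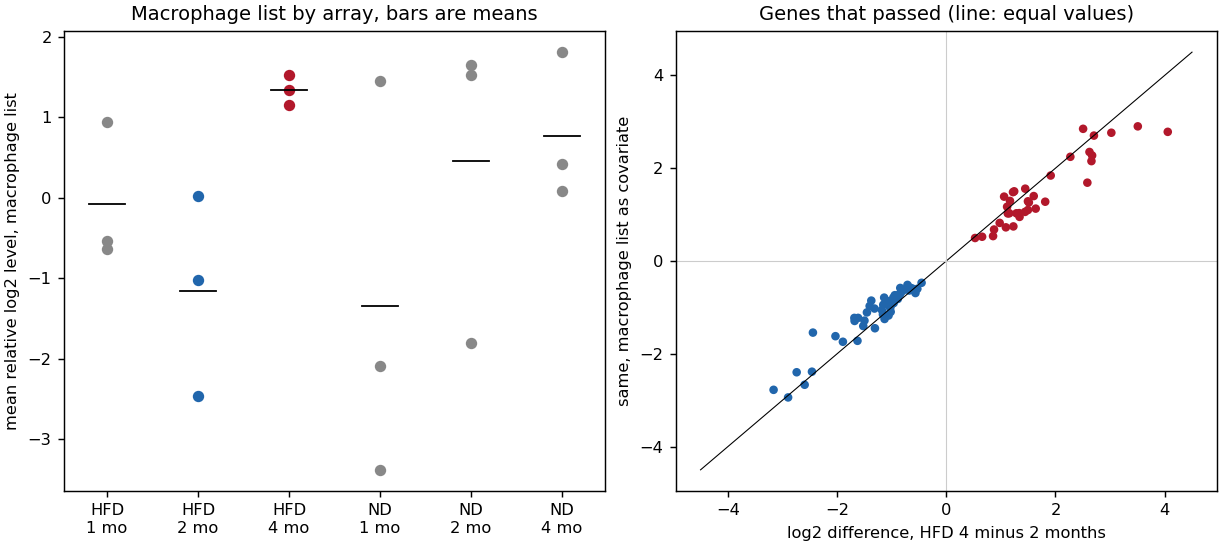
Left, the mean relative log2 level of 24 macrophage genes on each array by diet and feeding time, with bars at the means; the HFD 4-month arrays lie between 1.15 and 1.53 and the HFD 2-month arrays between -2.47 and 0.02. Right, the difference of each of the 88 called genes without (x axis) and with (y axis) that mean as a covariate, with a line at equal values.

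No tested marker of other blood cells or of endothelium passed. Of 5 lymphocyte genes 4 had a positive difference and 2 lay apart and higher (13.7% of all named genes did). The range was -1.66 for Gzmb to 1.81 for Cd8a. Cd3e read 3.42, 3.34 and 3.31 after 4 months against 3.49, 3.27 and 3.29 after 2 months, near the filter level of 3.22. Of 3 tested erythroid genes 2 had a positive difference, with a median of 0.06, and Hbb, a haemoglobin chain, stood at -0.06 ± 0.11. The 5 tested granulocyte and mast cell genes all had a positive difference, with a median of 0.51. Among them Lcn2, an iron-sequestering lipocalin that stromal cells also make, read 8.21, 10.13 and 8.59 after 4 months and 4.48, 7.37 and 4.28 after 2 months, a difference of 3.60 ± 1.70. Of 3 tested endothelial genes 2 lay apart and higher (13.7% of all named genes did). The list median was 1.43, and 0.08 with the macrophage covariate. Esam, an endothelial adhesion molecule, stood at 1.53 ± 0.36 (SE, n = 3 per group, limma adjusted p = 0.0640) and Flt1, a VEGF receptor, at -0.02 ± 0.10.

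Cxcl12, Sfrp1, Apln, Fgf7 and Tgfa, which encode secreted factors, passed as well. Cxcl12 read 11.41, 12.05 and 10.87 after 4 months against 8.53, 8.56 and 9.72 after 2 months. The 2-month arrays all lay below the 4-month ones, replicate 3 nearest, and the difference was 2.51 ± 0.47, or 5.68-fold (SE, n = 3 per group, limma adjusted p = 0.0352). It was the 1 rise among 15 tested niche factors, whose median was 0.32. Angpt1, angiopoietin-1, which supports stem cell quiescence and vessels, stood at 2.06 ± 0.58, and the Notch ligand Jag1 at -1.89 ± 0.70, neither passing. The other probe sets of Cxcl12 lay between 1.58 and 2.38. Its difference was 2.85 ± 0.53 with the macrophage covariate.

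Sfrp1, a secreted protein that binds WNT ligands, read 10.08, 10.17 and 8.63 after 4 months and 6.36, 6.51 and 7.91 after 2 months. Replicate 3 was the lowest of the 4-month arrays and the highest of the 2-month arrays, without overlap, and the rise was 2.70 ± 0.47, or 6.52-fold (SE, n = 3 per group, limma adjusted p = 0.0275). Sfrp1 alone passed among 24 tested WNT genes, 8 of which had a positive difference. Dkk3 stood at -1.59 ± 0.42, the feedback inhibitor and target Axin2 at -0.52 ± 0.14 and Nkd2, another inhibitor, at -1.48 ± 0.44. The list median was -0.20, and 0.05 with the macrophage covariate.

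Apln, which encodes the vessel-active peptide apelin, had the largest rise of all named genes that passed. It read 8.0, 8.57 and 7.28 after 4 months against 3.13, 4.07 and 4.48 after 2 months. Replicate 1 of the 2-month arrays lay near the filter level of 3.22, and the 4-month arrays all lay well above it. The difference was 4.06 ± 0.82 log2 units (SE, n = 3 per group, limma adjusted p = 0.0419), and 2.78 ± 0.70 with the macrophage covariate. A second probe set stood at 1.76, and the mean of both did not pass, at 2.91 (limma adjusted p = 0.0635). Fgf7, keratinocyte growth factor, read 9.75, 9.85 and 9.82 after 4 months and 8.76, 8.11 and 8.89 after 2 months. Its 4-month arrays were nearly equal, and the rise was 1.22 ± 0.26 (limma adjusted p = 0.0498). Of 18 tested angiogenic factors these 2 rose and 16 did not pass, with a median of 0.08. Vegfd stood at 1.52 ± 0.45 and Fgf1 at -2.24 ± 0.66. Tgfa, a ligand of the EGF receptor, rose by 1.15 ± 0.22 (limma adjusted p = 0.0353).

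Matrix genes split. Col14a1, a collagen that sits on the surface of fibrils, read 10.96, 11.02 and 10.41 after 4 months against 6.91, 7.5 and 9.96 after 2 months. Here 2-month replicate 3 came close to the 4-month arrays while replicates 1 and 2 lay about 3 log2 units lower, and the rise was 2.67 ± 0.57 (SE, n = 3 per group, limma adjusted p = 0.0498). Vcan, the large proteoglycan versican, read 10.83, 11.30 and 11.04 after 4 months and 9.32, 9.45 and 10.06 after 2 months. The groups did not overlap, the rise was 1.45 ± 0.26 (limma adjusted p = 0.0330), and its other 4 probe sets stood at 1.29 to 1.72. It alone passed among 13 tested proteoglycan genes, 10 of which had a negative difference, with a median of -0.43, and of 0.21 with the macrophage covariate. Of 44 tested collagen, matrix and crosslinking genes Col14a1 alone passed, 16 had a positive difference and the median was -0.11. Fbln1, fibulin-1, stood at 1.08 ± 0.23 (limma adjusted p = 0.050), while Tnc, tenascin-C, stood at -2.16 ± 0.58, and the crosslinking enzymes Loxl1 and Loxl2 at -1.03 ± 0.28 and -1.0 ± 0.28. Plat, tissue plasminogen activator, was the 1 fall among 23 tested proteases and inhibitors, at -1.40 ± 0.30 (limma adjusted p = 0.0498). Timp3, a metalloproteinase inhibitor held in the matrix, stood at -2.22 ± 0.65 and did not pass.

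**Figure D4:**
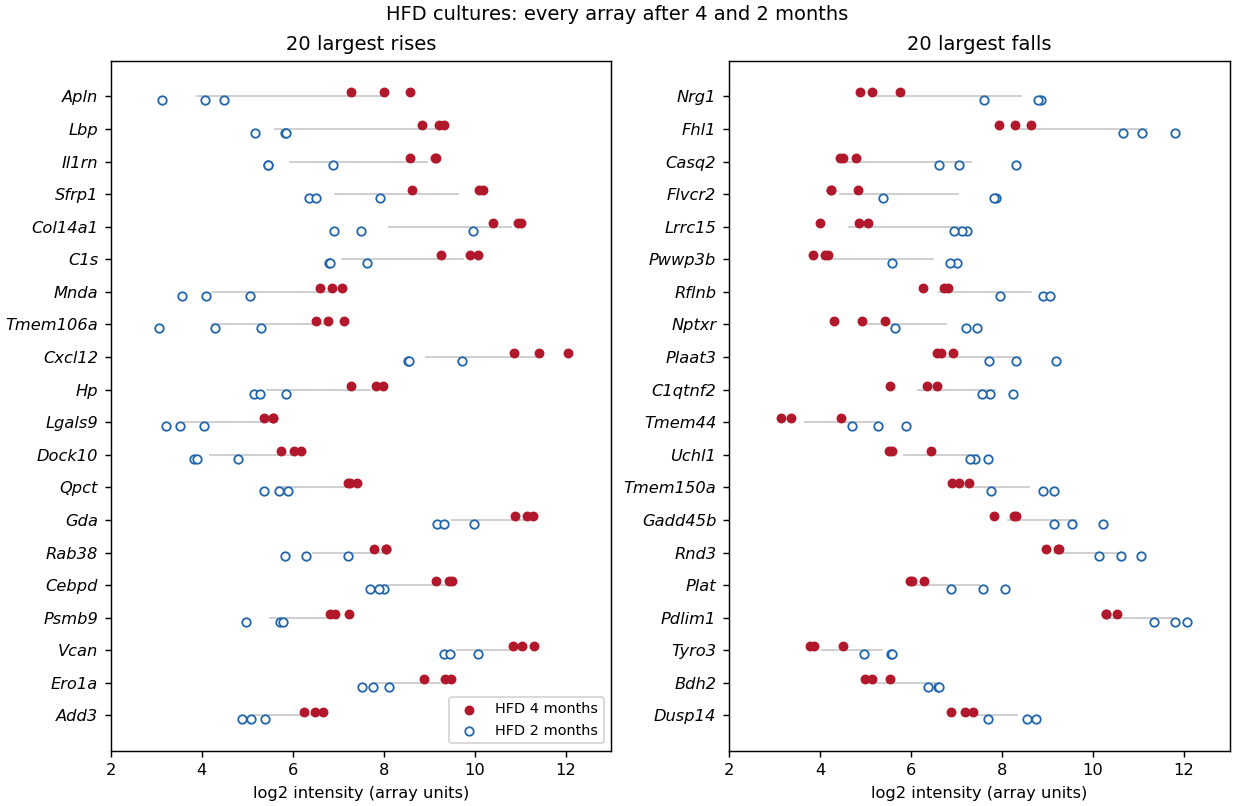
Log2 intensity on each of the 6 arrays for the 20 largest rises (left) and the 20 largest falls (right) among genes that passed, HFD 4 months filled red and HFD 2 months open blue, with grey lines between the group means. In no gene do the groups overlap, and the largest differences between group means are those of Apln, at 4.06 log2 units, and Nrg1, at -3.16.

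Muscle and cytoskeletal genes were among the largest falls. Casq2, which binds calcium in the sarcoplasmic reticulum of heart muscle, read 4.80, 4.43 and 4.5 after 4 months against 8.30, 7.05 and 6.60 after 2 months. The 4-month arrays lay close together and far below all 2-month arrays, of which replicate 1 was highest, and the fall was -2.74 ± 0.40, or 6.68-fold (SE, n = 3 per group, limma adjusted p = 0.0188). A second probe set stood at -2.88. Fhl1, a LIM-domain protein abundant in skeletal muscle, read 8.63, 8.28 and 7.94 after 4 months and 11.80, 11.07 and 10.66 after 2 months. It fell by 2.90 on the log2 scale, with a standard error of 0.56 (limma adjusted p = 0.0382), and its second probe set stood at -3.42. Of 10 tested skeletal and cardiac muscle genes these 2 fell, 8 did not pass and 1 had a positive difference, with a median of -0.84 on HFD, -0.09 on ND and -1.07 with the macrophage covariate. Acta1, skeletal muscle actin, stood at -2.29 ± 0.57 (limma adjusted p = 0.0778). Itgb1bp2, melusin, a muscle protein that binds integrin beta-1 and stands in no list, fell by 0.90 on the log2 scale.

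Nearly all smooth muscle contractile genes had negative differences too, and none passed. Of 20 tested, 1 had a positive difference, 13 lay apart and lower (14.7% of all named genes did) and 10 had an unadjusted p under 0.05 (10.2% of all named genes, lower), with a median of -0.44 on HFD, -0.15 on ND and -0.21 with the covariate. Myocd, the coactivator that drives smooth muscle genes, read 3.88, 3.86 and 4.12 after 4 months and 6.75, 6.11 and 4.48 after 2 months. Its 2-month replicate 3 lay near the 4-month arrays, and the difference was -1.83 ± 0.45 (SE, n = 3 per group, limma adjusted p = 0.0715). Myh11, smooth muscle myosin, stood at -2.25 ± 0.69 and Tpm1, a tropomyosin, at -0.59 ± 0.14 (limma adjusted p = 0.133 and 0.0585). Outside the lists, Pdlim1, which binds actin stress fibres, fell by 1.37 on the log2 scale, Rflnb, a filamin-binding protein, by 2.03, and Enah, which promotes actin filament growth, by 0.94.

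Windows of 2 fallen genes are shown for the motif of serum response factor and for AP-1. The Fhl1 window, 1 of 2 for this gene, is chrX:139638246-139638545 on the plus strand, and its capitals mark a CArG motif (CC, 6 bases of A or T, GG), the sequence that serum response factor binds, 102 bases before the start. The Lrrc15 window is chr11:83974458-83974757 on the plus strand, with an AP-1 motif in capitals 49 bases before the start.
Fhl1: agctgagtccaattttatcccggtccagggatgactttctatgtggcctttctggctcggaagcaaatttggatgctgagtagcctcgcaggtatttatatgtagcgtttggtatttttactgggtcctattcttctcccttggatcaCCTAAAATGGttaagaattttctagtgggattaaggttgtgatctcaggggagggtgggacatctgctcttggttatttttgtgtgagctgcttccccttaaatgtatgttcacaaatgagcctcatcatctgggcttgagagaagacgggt
Lrrc15: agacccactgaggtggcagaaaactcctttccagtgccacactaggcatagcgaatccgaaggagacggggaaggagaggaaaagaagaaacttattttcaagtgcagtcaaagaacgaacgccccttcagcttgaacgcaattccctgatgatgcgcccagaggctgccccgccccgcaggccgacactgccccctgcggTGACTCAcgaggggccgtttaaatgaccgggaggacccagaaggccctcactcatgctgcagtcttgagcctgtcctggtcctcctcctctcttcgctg
The CArG motif occurred in 2 of the 67 windows of the 43 fallen genes that had one (2.99%), that of Fhl1 among them, against 1.64% of all windows. AP-1 occurred in 12 of the 67 (17.9%), belonging to 10 genes, among them Lrrc15, Dusp14, Me1, Sphk1 and Tyro3, against 7.33% of all windows and 1 of the 25 windows of risen genes (4%). These are counts of letters in a window, and several windows can belong to 1 gene.

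Nrg1, neuregulin-1, a ligand of ERBB receptors, had the largest fall of the named genes that passed, at 5.13, 4.88 and 5.75 after 4 months against 8.86, 8.78 and 7.61 after 2 months. All 2-month arrays lay above all 4-month arrays, and the difference was -3.16 ± 0.58, or 8.95-fold (SE, n = 3 per group, limma adjusted p = 0.0338). Nrg1 has 7 tested probe sets, and the other 6 ranged from -3.00 to -0.10. Lrrc15, a leucine-rich repeat protein on the surface of stromal fibroblasts, read 5.06, 3.99 and 4.86 after 4 months and 7.23, 7.11 and 6.95 after 2 months. The 2-month arrays were nearly equal, and the fall was -2.46 ± 0.39 (limma adjusted p = 0.0213). Tyro3, a receptor tyrosine kinase that senses dying cells, fell by 1.31 on the log2 scale, Plaat3, a phospholipase and acyltransferase, by 1.68, Uchl1, a ubiquitin hydrolase abundant in neurons, by 1.61, and Nptxr, the neuronal pentraxin receptor, by 1.89. C1qtnf2, a secreted relative of adiponectin, fell by 1.68, Gadd45b, a stress-induced regulator of growth arrest, by 1.5 and Dusp14, a phosphatase of MAP kinases, by 1.18.

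In the TGF-beta and BMP list 0 of 31 tested genes passed, and its median was -0.20. Inhbb, an activin subunit, stood at 1.87 ± 0.41 and Tgfb3 at -2.0 ± 0.46 (SE, n = 3 per group, limma adjusted p = 0.0522 and 0.0614). No bone gene of the list passed. Of 13 tested osteogenic genes 2 had a positive difference and 8 lay apart and lower (14.7% of all named genes did), with a median of -0.61 on HFD, -0.02 on ND and -0.43 with the macrophage covariate. Ankh, which exports pyrophosphate and ATP, read 7.80, 7.39 and 7.90 after 4 months and 8.73, 9.4 and 8.88 after 2 months, a difference of -1.31 ± 0.29 (limma adjusted p = 0.0542). Ibsp, bone sialoprotein, read 5.95, 5.72 and 5.72 after 4 months and 9.59, 8.80 and 7.14 after 2 months. Its 4-month arrays were nearly equal and its 2-month arrays spread, and the difference was -2.72 ± 0.84 (limma adjusted p = 0.136). Slc20a2, a phosphate transporter outside the list, fell by 1.14 on the log2 scale.

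Adipogenic genes held 1 rise. Cebpd, a transcription factor of early fat cell differentiation and of the acute phase, read 9.5, 9.44 and 9.15 after 4 months and 8.01, 7.71 and 7.89 after 2 months. The arrays of each group lay close together, and the rise was 1.5 ± 0.27 (SE, n = 3 per group, limma adjusted p = 0.0330), with its other probe sets between 0.13 and 1.81. Of 20 tested genes 11 had a positive difference, with a median of 0.28. Cebpa stood at 1.16 ± 0.38 and the fatty acid carrier Fabp5 at 1.13 ± 0.34, without passing. With the macrophage covariate the list median was 0.78.

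Lipid genes mostly had small differences. All 20 tested genes of cholesterol synthesis and uptake had a positive difference, with a median of 0.48, against 48.8% of all named genes, and 0 passed. Only 3 of the 20 lay apart and higher, where 13.7% of all named genes did. Over the 12 with a value on every array, the list mean was 8.23, 8.19 and 7.93 after 4 months. After 2 months it was 7.15, 7.57 and 8.13, so replicate 3 of that group overlapped the 4-month arrays. On ND 0 of the 20 had a positive difference, against 44.8% of all named genes, with a median of -0.54, and 16 of the 20 had an unadjusted p under 0.05 for the difference between diets (9.77% of all named genes). Srebf2, which encodes the factor that drives this pathway, stood at 0.54 ± 0.17 on HFD and -0.16 on ND. Insig1, its sterol-dependent brake, stood at 0.97 ± 0.31 on HFD and -0.83 on ND, and Sqle, squalene epoxidase, at 0.64 ± 0.28 and -0.66. With the macrophage covariate 17 of the 20 were positive, with a median of 0.15. Nr1h3, the oxysterol receptor LXR-alpha, was the 1 rise among 12 genes of cholesterol efflux and LXR, at 5.26, 5.47 and 5.65 after 4 months against 4.67, 4.21 and 4.57 after 2 months. These are low levels with little spread, and the difference was 0.98 ± 0.18 (SE, n = 3 per group, limma adjusted p = 0.0330). Apoe, which carries lipids and is made by macrophages as well, read 13, 12.11 and 12.67 after 4 months and 8.28, 8.92 and 12.27 after 2 months. It did not pass, at 2.77 ± 1.49, and stood at -0.47 with the covariate.

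Me1, malic enzyme, which supplies NADPH for fatty acid synthesis, read 7.92, 8.05 and 8.0 after 4 months and 9.30, 9.19 and 8.71 after 2 months. The 4-month arrays were nearly equal, and the fall was -1.08 ± 0.23 (SE, n = 3 per group, limma adjusted p = 0.0473). It alone passed among 22 tested genes of fatty acid and triglyceride synthesis, 15 of which had a positive difference, with a median of 0.24. The desaturase Fads1 stood at 1.22 ± 0.41 and Scd2 at 0.87 ± 0.31. Ugcg, which makes glucosylceramide, rose by 1.09 ± 0.23, and Sphk1, which makes sphingosine 1-phosphate, fell by 1.06 on the log2 scale, so that these sphingolipid enzymes moved in opposite directions. Of 18 tested genes of fatty acid oxidation 0 passed, with a median of 0.03.

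Most genes of glycolysis and low oxygen had positive differences. Of 20 tested glycolysis genes 0 passed, 18 were positive, 15 lay apart and higher (13.7% of all named genes did) and 12 were higher at an unadjusted p under 0.05 (8.48% of all named genes), with a median of 0.69 on HFD, 0.10 on ND and 0.12 with the macrophage covariate. Slc16a1, a lactate transporter, stood at 0.66 ± 0.15 (SE, n = 3 per group, limma adjusted p = 0.0544) and Pgk1 at 1.12 ± 0.39. Ero1a, an endoplasmic reticulum oxidase induced by low oxygen, read 9.34, 9.48 and 8.88 after 4 months and 7.51, 7.76 and 8.10 after 2 months. Its groups stayed apart, and the rise was 1.44 ± 0.24 (limma adjusted p = 0.0248). It was the 1 rise among 20 tested hypoxia targets, 16 of them positive, with a median of 0.65, and of 0.12 with the covariate. Adm, adrenomedullin, stood at 2.21 ± 0.60 and Ndrg1 at 1.49 ± 0.34. Of 26 tested oxidative phosphorylation genes 0 passed and the median was 0.03, while Mcu, the pore of the mitochondrial calcium uniporter, fell by 0.66 on the log2 scale. Flvcr2, a membrane transporter, was the 1 fall among 15 iron and heme genes, at 4.82, 4.24 and 4.23 after 4 months against 7.87, 7.82 and 5.39 after 2 months. Replicate 3 of the 2-month arrays lay well below the other 2, and the difference was -2.59 ± 0.55 (limma adjusted p = 0.0473).

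Nearly all cell cycle genes had positive differences on both diets. Of 52 tested genes 50 had a positive difference on HFD, with a median of 0.58, and 52 on ND, with a median of 0.47, and 0 passed on either. Mki67, a marker of dividing cells, read 7.39, 7.80 and 8.25 after 4 months and 5.06, 6.36 and 7.10 after 2 months, without overlap. Its difference was 1.64 ± 0.44 (SE, n = 3 per group, limma adjusted p = 0.0931). With the macrophage covariate the list median was 0.60. Among cell cycle inhibitors and senescence genes 0 of 16 passed, with Cdkn1b (p27) at 0.90 ± 0.20 (limma adjusted p = 0.0544), Cdkn1a (p21) at -0.70 ± 0.20 and Cdkn2a at -1.17 ± 0.40. The 17 tested ribosomal protein genes all had a positive difference, with a median of 0.19, and 0 passed. Of 24 tested genes of the unfolded protein response 21 were positive, with a median of 0.41, and 0 passed.

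**Figure D5:**
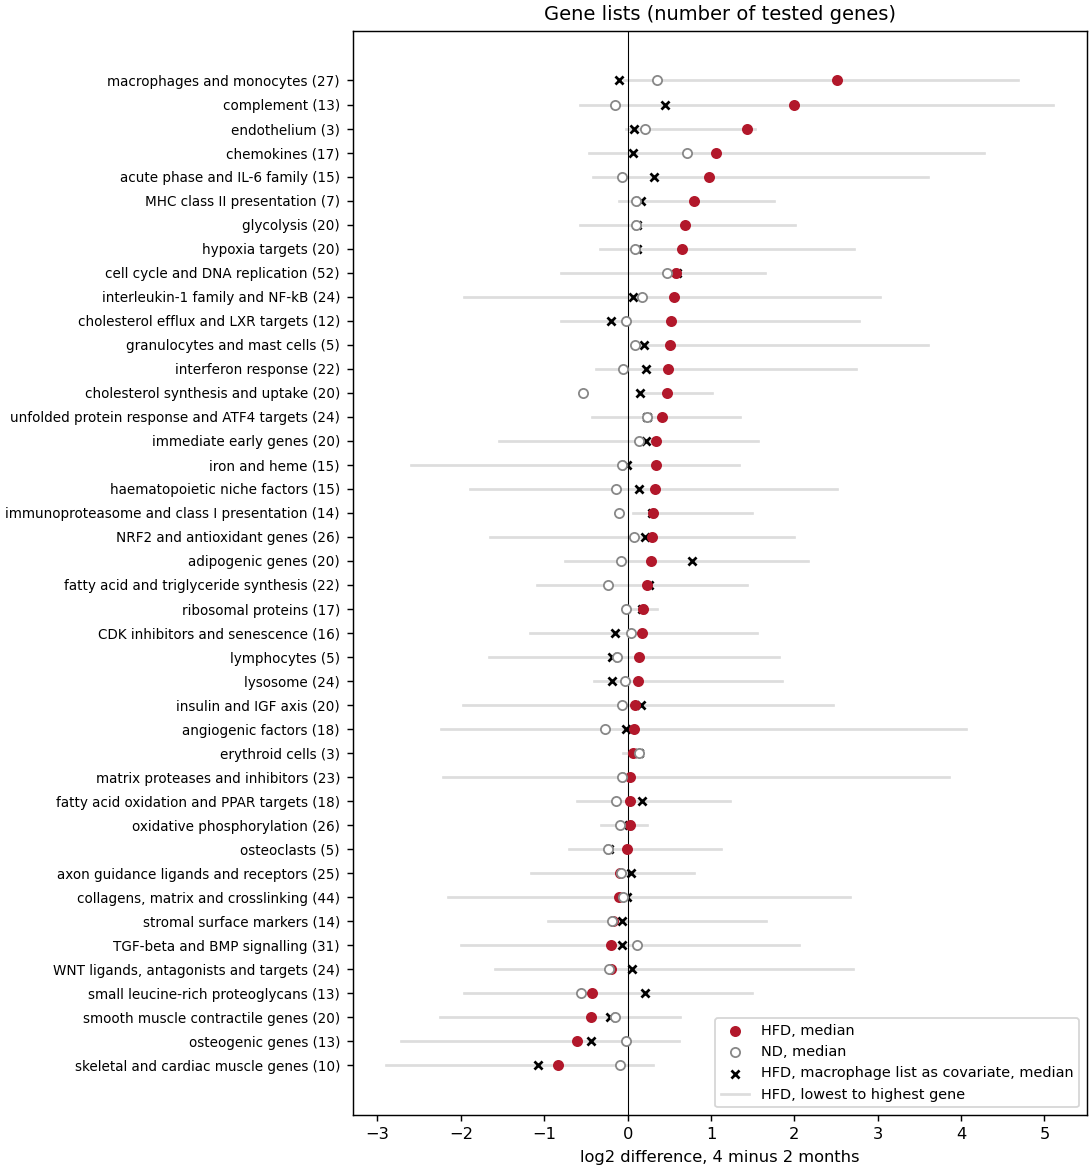
Median log2 difference of 4 minus 2 months for the tested genes of each of 42 lists (number of genes in brackets) on HFD (filled), on ND (open) and on HFD with the macrophage list mean as a covariate (cross), with grey lines from the lowest to the highest gene on HFD. Macrophage genes lie at the top with a median of 2.51 and complement next at 1.99, and skeletal and cardiac muscle genes lie at the bottom at -0.84.

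Further genes that passed fall in none of the groups above. Gda, guanine deaminase, read 10.88, 11.28 and 11.14 after 4 months and 9.17, 9.33 and 9.99 after 2 months, a rise of 1.60 ± 0.25 (SE, n = 3 per group, limma adjusted p = 0.0213) without overlap. Qpct, which closes N-terminal glutamine into pyroglutamate, rose by 1.64 ± 0.32, Rab38, a GTPase of vesicle transport, by 1.51 ± 0.32, Add3, a subunit of the membrane skeleton protein adducin, by 1.34 ± 0.28, and Tmem106a by 2.58 ± 0.52. Among the falls, Pwwp3b read 3.84, 4.10 and 4.17 after 4 months and 7.02, 6.85 and 5.57 after 2 months. Its 2-month replicate 3 lay lowest of that group, and the fall was -2.44 ± 0.46 (limma adjusted p = 0.0372). Bdh2, a ketone body and siderophore dehydrogenase, fell by 1.31 on the log2 scale, Tmem150a by 1.52 and Tmem44 by 1.63. Trim2, a ubiquitin ligase, fell by 0.72 ± 0.10 (limma adjusted p = 0.0188) with arrays at 5.69, 5.78 and 5.74 after 4 months against 6.53, 6.39 and 6.43 after 2 months. Its difference on ND was -0.52 ± 0.10, with the same sign.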

How the data were processed

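Total RNA of cultured bone marrow cells was hybridised to Affymetrix rat arrays. The deposited table holds 1 intensity value per probe set and array on a linear scale, and the submitters' processing notes name RMA as the authors' summary method, with no version. The values were taken to log2 with no added constant from the deposited intensities. For replicate 1 of the ND 1-month group all values were moved down by 1343 rows, where they lined up with the series (r with the other 17 arrays' mean, 0.0909 before and 0.990 afterwards), which leaves it with no value for 1343 probe sets. Of 31099 probe sets, 20832 had 1 gene symbol in the platform annotation, 436 had several and 9831 none, and 20764 were found by gene identifier in the RefSeq GRCr8 gene table. Left out were 57 controls and the dimmest 30% by mean log2, at or below 3.22.

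With limma 3.58.1 under R 4.3.3, the 6 groups of the 18 arrays each got a mean, leaving 12 residual degrees of freedom (1 fewer where that array has no value), to which moderation added 2.43. Tests were two-sided, with Benjamini-Hochberg adjustment over 21729 probe sets and a threshold of 0.05. Each gene was read on the brightest of its tested probe sets. Precision is limited by having 3 arrays in a group. No scan date or batch is given in the sources used here. Genes named in the text were the 20 largest rises and 20 largest falls that passed without overlap, the 6 with the smallest p between diets, up to 6 per list by moderated t, and stromal and macrophage checks. Casp1, Jak2, Tnfrsf1a, Tgfa, Ugcg, Pla1a, Slc20a2, Sphk1, Enah, Itgb1bp2, Mcu and Trim2 passed the test but stand outside this rule and were chosen after their values were seen. The members and the 42 lists (928 genes, 754 tested) were chosen with earlier results of these data known. The alternatives covered the filter, normalization, added intensity, variance model, array weights, arrays in the fit, probe sets per gene, cross-hybridising probe sets, a minimum change, a replicate block, a macrophage covariate, the unmoved column and leaving out each array. The procedure was tested on simulated data.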

Additional observations from a re-analysis of the deposited data

How the results depend on the processing

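The calls depend on single arrays and on the estimate of spread. For HFD 4 minus 2 months, leaving out 1 array gave 0 to 1073 called probe sets against 153. The count was 3213 with array weights, 303 with only the 6 compared arrays (66.7% higher against 41.2%, 73 shared), 260 with quantile normalization and 99 without probe sets open to cross-hybridization. It was 42 with the replicate block, 5 with the macrophage covariate, 0 with a minimum change of 1.5-fold and 0 with the shifted column as deposited. With the other settings, a filter of 0 or 50%, median centring, an added intensity of 16, a variance trend and robust moderation, it was 127 to 198. With the probe sets of each gene averaged, 109 genes passed, against 88. On ND the count was 20 with array weights, 0 to 1 with 1 array left out and 0 otherwise. In the difference between diets it was 640 with array weights, 5 with median centring, 5 with a variance trend, 5 without probe sets open to cross-hybridization, 0 to 91 with 1 array left out and 0 otherwise. The cause of these moves was not tested.

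Replicate numbers did not pair the arrays: residuals of HFD arrays with the same number correlated at 0.03, -0.03 and -0.13, and 1 of 6 arrays correlated best with its own number. The 47 genes that passed and fall under the naming rule kept their direction in all 1497 recomputed values. They were chosen without overlap between the groups, so leaving out 1 array or changing the variance model could not reverse them. None of the 47 passed with the macrophage covariate or with the shifted column as deposited. The same held without HFD 2-month replicate 1 or 2 and without HFD 4-month replicate 1 or 2. List medians changed sign in 29 of 1344 recomputed values. Over these settings the complement median lay between 0.45 and 2.21, the macrophage median between -0.10 and 3.16 and the smooth muscle median between -0.50 and -0.21. The -0.10 came from the fit with the covariate made from the macrophage genes themselves.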
